A study of Homo sapiens with 6 samples.

Results

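Claudins and the proteins that assemble with them at the tight junction were examined in HSC3 cells, a cell line derived from a human oral squamous cell carcinoma. The rule names the genes and uses no measured value, but it was written with earlier results of these data known. It held 9 genes: the claudins CLDN1, CLDN4, CLDN7 and CLDN12, the occludin gene OCLN, MARVELD2, F11R, TJP1 and CGN. Of these, 8 had a named probe, among 18757 genes with a named probe in all. No probe was named for MARVELD2, the gene of tricellulin, a protein of the points where 3 cells meet, and MARVELD2 was not analysed here.

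The tight junction seals the space between neighbouring epithelial cells near their apical border. Claudins, which span the membrane several times, form its strands and set which ions and solutes pass between cells, while occludin, tricellulin and the junctional adhesion molecules lie beside them in the membrane. On the inner side, the zonula occludens proteins and cingulin connect the strands to actin and myosin. Stratified squamous epithelium, the tissue of origin of oral squamous cell carcinoma, makes its tight junctions in the upper layers.

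The RNA of 6 cultures was measured, each on 1 single-colour CodeLink whole-genome array. The cultures carried MIA, MIA2, TANGO, MATE2 or LEMD1 siRNA, or were the control. MIA3 is the gene known as TANGO, and SLC47A2 the gene known as MATE2. The design text gives the control as transfected with a control siRNA, whereas the array methods of the study call the control cells untreated. Each condition had 1 array and hence no replicates, so no test between conditions was possible, no ratio has an error, and ratios are described by a fixed size of 2-fold. All 5 siRNA arrays share the same control array, so a deviation of that array would enter every ratio to it. In RNA from a whole culture, fewer cells with a transcript and less transcript per cell cannot be told apart.

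The targeted genes bore out the labels only in part. LEMD1 was near background on the array labelled LEMD1 siRNA, at least 10.1-fold below the 277.9 of control, but it was also near background on the array labelled MIA2 siRNA, at least 6.57-fold lower, and stood at 3192 and 1011 on the TANGO and MATE2 siRNA arrays. The transporter gene SLC47A2 read 58.9 and 79.6 on the array labelled TANGO siRNA and on that labelled MATE2 siRNA, against 1510 in control. Of the 2 probes of MIA2, 1 was near background on all 6 arrays, so that no fall could be read from it, and the other read 168.7 on the array labelled MIA2 siRNA and 155.3 in control. These 2 probes are annotated to different transcript records. Whether the brighter one reads the transcript targeted by the siRNA was not tested. MIA was near background on all 6 arrays, and no probe was named for MIA3. Arrays are therefore called by their labels. The number of gene probes with a good scanner flag lay between 27545 and 30628 per array. Squamous epithelial markers such as KRT5, KRT14, TP63 and EPCAM had good signal on all 6 arrays, whereas PTPRC of leukocytes, CDH5 of endothelium and COL3A1 and DCN of fibroblasts were near background. The keratin genes themselves differed between the arrays, and not all in the same direction. KRT14 read 308.6 on the array labelled TANGO siRNA, 2812 on MATE2 siRNA, 16780 on MIA2 siRNA and 14440 on LEMD1 siRNA, against 5354 in control. KRT5 read 4837, 3283, 12771 and 14792 on the same arrays, against 1558 in control. KRT17 read 665.9 on the array labelled MATE2 siRNA, against 83.2 in control. The part of squamous differentiation in the junction gene ratios was not tested.

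Of the 12 probes of the 8 genes, 10 were good on all 6 arrays and 2, the dimmest CLDN12 probe and the dimmer OCLN probe, were near background on all 6. Where a gene has several good probes, the brighter one is given first. Signals are quantile-normalized scanner intensities in arbitrary units. They compare arrays for 1 probe and not genes with each other. Among the 40 ratios of these genes to control (8 genes on 5 arrays), 8 were at least 2-fold lower, 2 were at least 2-fold higher and 30 lay between, and 33 of the 40 were below 0 on the log2 scale. Over all genes compared, 0.266% to 11.7% per array were at least 2-fold lower, 0.391% to 5.93% higher, and 50.6% to 56.6% were below 0. The 40 ratios are not independent, since they share the control array.

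CLDN4, a barrier-forming claudin and a receptor for Clostridium perfringens enterotoxin, differed most between the arrays. Its probe GE53020 read 1131 on the array labelled MIA siRNA, 390.2 on MIA2 siRNA, 4658 on TANGO siRNA, 7402 on MATE2 siRNA and 715.9 on LEMD1 siRNA, against 1294 in control. The TANGO and MATE2 siRNA arrays were thus high, the MIA2 and LEMD1 siRNA arrays low and the MIA siRNA array close to control. The gap between control and the TANGO siRNA array was the only step above 2-fold between neighbouring arrays in the order of any of the 8 genes. The ratio to control was 5.72-fold on the MATE2 siRNA array (log2 ratio 2.52) and 3.60-fold on the TANGO siRNA array (1.85), whereas on the MIA2 siRNA array the signal was 3.32-fold lower (-1.73). In the order of all genes compared, CLDN4 stood at place 44 from the highest of 12593 genes on the MATE2 siRNA array, at 143 of 12553 on the TANGO siRNA array and at 92 from the lowest of 12483 on the MIA2 siRNA array. The MATE2 siRNA array was 18.97-fold above the MIA2 siRNA array, a log2 ratio of 4.25, which was at place 6 from the highest of 12347 genes. All 3 calls against control were kept under every alternative run, with log2 ratios of 2.46 to 2.71 on MATE2 siRNA, 1.57 to 2.04 on TANGO siRNA and -1.78 to -1.54 on MIA2 siRNA.

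CLDN1, the claudin on which the barrier of mouse epidermis depends, followed nearly the same order of arrays over a narrower range. Its signal was 163.6 on MIA siRNA, 147.5 on MIA2 siRNA, 327.6 on TANGO siRNA, 293.9 on MATE2 siRNA and 156.0 on LEMD1 siRNA, against 242.6 in control. The 3 lower arrays and the 2 higher ones were the same as for CLDN4, but no ratio to control reached 2-fold, with log2 ratios from -0.72 on MIA2 siRNA to 0.43 on TANGO siRNA. Between the siRNA arrays, CLDN1 was 2.22-fold higher on TANGO siRNA than on MIA2 siRNA. Over the array labelled MIA siRNA, or over the remaining 5 arrays by their median, the ratio on TANGO siRNA reached 2-fold.

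CLDN7, an epithelial claudin that also lies along the lateral membrane and binds EpCAM, was below control on all 5 siRNA arrays. It read 1137 on MIA siRNA, 718.4 on MIA2 siRNA, 506.1 on TANGO siRNA, 806.0 on MATE2 siRNA and 555.1 on LEMD1 siRNA, against 1455 in control. Control was therefore the highest of the 6 arrays, with the MIA siRNA array next to it and the TANGO siRNA array lowest. The log2 ratio to control was at least 1 in size on 3 arrays, at -1.52 on TANGO siRNA, -1.39 on LEMD1 siRNA and -1.02 on MIA2 siRNA, and it was -0.85 on MATE2 siRNA and -0.36 on MIA siRNA. On the TANGO siRNA array CLDN7 and CLDN4 thus lay on opposite sides of control. Since control was the highest array, these values rest on it: over the median of the remaining 5 arrays the log2 ratios were -0.67 on TANGO siRNA, -0.54 on LEMD1 siRNA and -0.17 on MIA2 siRNA. The call on MIA2 siRNA was also lost under median scaling, at -0.85, and with 3 other treatments of background, at -0.97 to -0.96.

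CLDN12, a claudin whose tail lacks the motif by which most claudins bind scaffold proteins, had 2 good probes. The brighter probe read 147.5 on MIA siRNA, 154.8 on MIA2 siRNA, 171.3 on TANGO siRNA, 114.9 on MATE2 siRNA and 208.0 on LEMD1 siRNA, against 237.4 in control. The dimmer one read 118.3, 110.1, 130.9, 61.9 and 134.6 on the same arrays, against 122.5 in control. Both probes were lowest on the MATE2 siRNA array, with log2 ratios of -1.05 and -0.98. On the other 4 siRNA arrays the brighter probe lay below control and the dimmer one had log2 ratios between -0.15 and 0.14. The 2-fold call on MATE2 siRNA was lost with 3 other treatments of background, at -0.80 to -0.74, and with both other comparators, at -0.58 and -0.36.

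**Figure D1:**
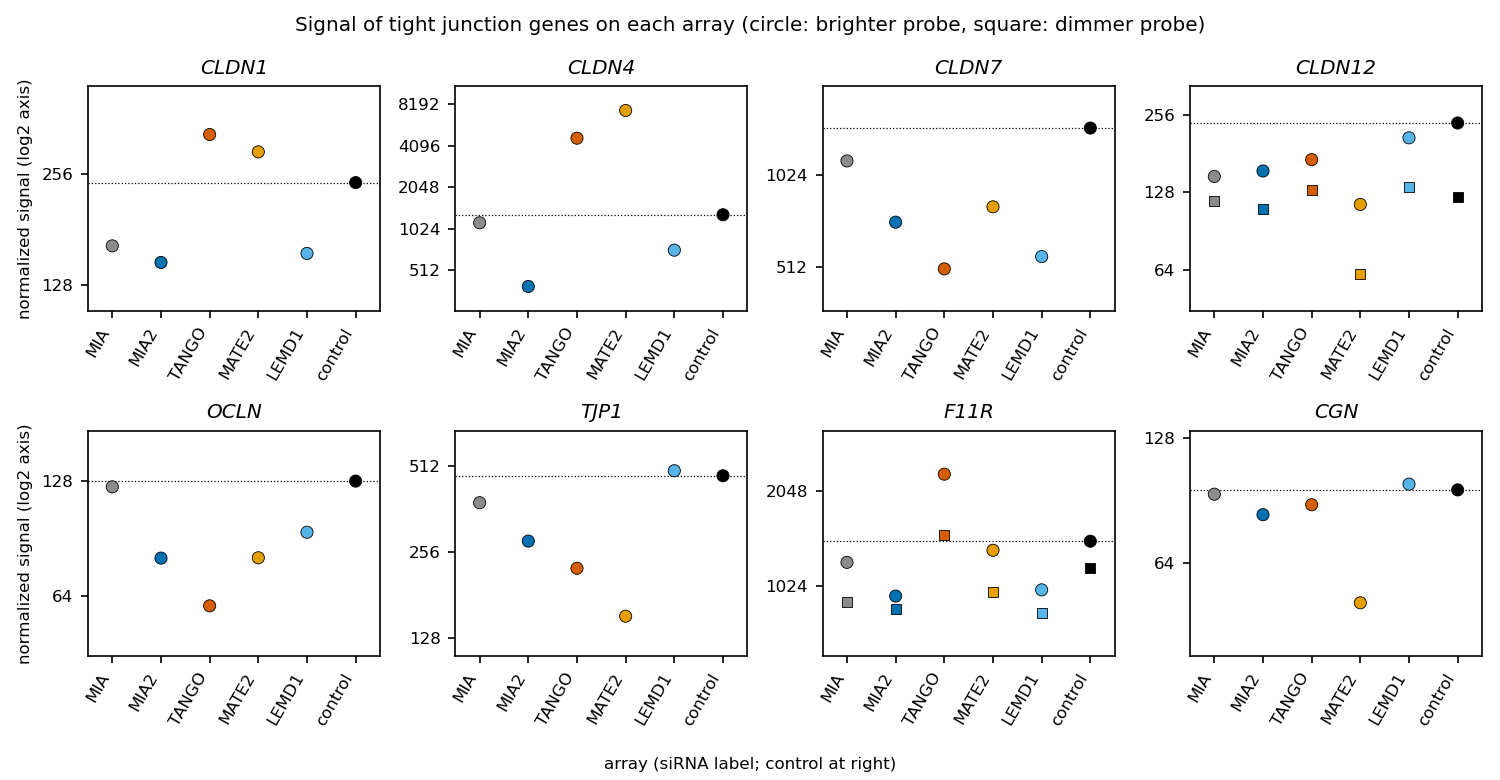
Normalized signal (arbitrary units, log2 axis) of each of the 8 genes on the 5 siRNA arrays and, at the right of each panel, the control array, with 1 point per array, circles for the brighter probe, squares for a dimmer good probe and a dotted line at the control level of the brighter probe. CLDN4 spans 390.2 to 7402, while CLDN7, OCLN and the brighter probe of CLDN12 lie below control on all 5 siRNA arrays.

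OCLN encodes occludin, and its probe GE79065 was dim on every array. It read 123.2 on MIA siRNA, 80.5 on MIA2 siRNA, 60.5 on TANGO siRNA, 80.6 on MATE2 siRNA and 93.9 on LEMD1 siRNA, against 127.6 in control. As with CLDN7, control was highest and the TANGO siRNA array lowest. The log2 ratio was -1.08 on TANGO siRNA and between -0.66 and -0.05 on the other 4 arrays. The call on TANGO siRNA was lost with 3 other treatments of background, at -0.68 to -0.56, and over the median of the remaining 5 arrays, at -0.64. F11R, the gene of junctional adhesion molecule A, an immunoglobulin-like adhesion protein, had its highest signal on the TANGO siRNA array by both probes. The brighter probe read 1217 on MIA siRNA, 953.3 on MIA2 siRNA, 2306 on TANGO siRNA, 1328 on MATE2 siRNA and 997.4 on LEMD1 siRNA, against 1419 in control. No ratio of F11R to control reached 2-fold, and the log2 ratio on TANGO siRNA was 0.70 by the brighter probe and 0.35 by the dimmer one. On the other 4 siRNA arrays both probes were below control, from -0.57 to -0.09.

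TJP1 encodes ZO-1, the scaffold that binds the tails of claudins and reaches to actin. Its signal was 380.9 on MIA siRNA, 279.2 on MIA2 siRNA, 224.2 on TANGO siRNA, 152.1 on MATE2 siRNA and 493.2 on LEMD1 siRNA, against 473.6 in control. The MATE2 and TANGO siRNA arrays were the lowest and the LEMD1 siRNA array was level with control. TJP1 was 3.11-fold lower on MATE2 siRNA (log2 ratio -1.64), which was kept under every alternative run (-1.70 to -1.29). The log2 ratio of -1.08 on TANGO siRNA was not kept under 5 of the 11 alternatives, with 3 other treatments of background (-0.93 to -0.91) and with both other comparators (-0.76 each). CGN, the gene of cingulin, which binds ZO-1 and myosin, read 93.6 on MIA siRNA, 83.5 on MIA2 siRNA, 88.2 on TANGO siRNA, 51.2 on MATE2 siRNA and 98.9 on LEMD1 siRNA, against 95.8 in control. CGN was low on the MATE2 siRNA array alone, with a log2 ratio of -0.91, with log2 ratios between -0.20 and 0.05 on the other 4. Its signal on MATE2 siRNA was near the lowest good signal of that array, 31.4. The log2 ratio there was -0.51 with normexp correction and -0.44 without background correction.

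By array, the 8 genes moved to different extents. On the array labelled MIA siRNA none reached 2-fold, where 0.266% of 12802 genes were that much lower and 0.391% higher, and the log2 ratios of all 8 were between -0.69 and -0.03 with a median of -0.27, against -0.04 over all genes. That median was -0.02 over the median of the remaining 5 arrays. The lowest ratio, of CLDN12, was -0.05 by its dimmer good probe. On the array labelled MIA2 siRNA all 8 were again below control, 2 of them (CLDN4 and CLDN7) by at least 2-fold, where 5.2% of 12483 genes were that much lower and 3.3% higher. Their median was -0.69, against -0.0071 over all genes, and it was -0.34 over the median of the remaining 5 arrays. On TANGO siRNA 3 were lower (CLDN7, OCLN and TJP1) and 1 higher (CLDN4), beside 9.09% lower and 5.57% higher of 12553 genes, with a median of -0.29 against -0.03. The sign of that median rests on the comparator: it was 0.03 over the median of the remaining 5 arrays and 0.07 over the array labelled MIA siRNA. On MATE2 siRNA 2 were lower (TJP1 and CLDN12) and 1 higher (CLDN4), beside 11.7% and 5.93% of 12593 genes, with a median of -0.76 against -0.03, which was -0.047 over the median of the remaining 5 arrays. On LEMD1 siRNA only CLDN7 was at least 2-fold lower, where 3.98% of 12955 genes were and 2.03% were higher, and the median was -0.47 against -0.02. The median on LEMD1 siRNA was also smaller in size over the median of the remaining 5 arrays. These are counts among 8 genes, so a share of them moves by 12.5% with each gene.

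**Figure D2:**
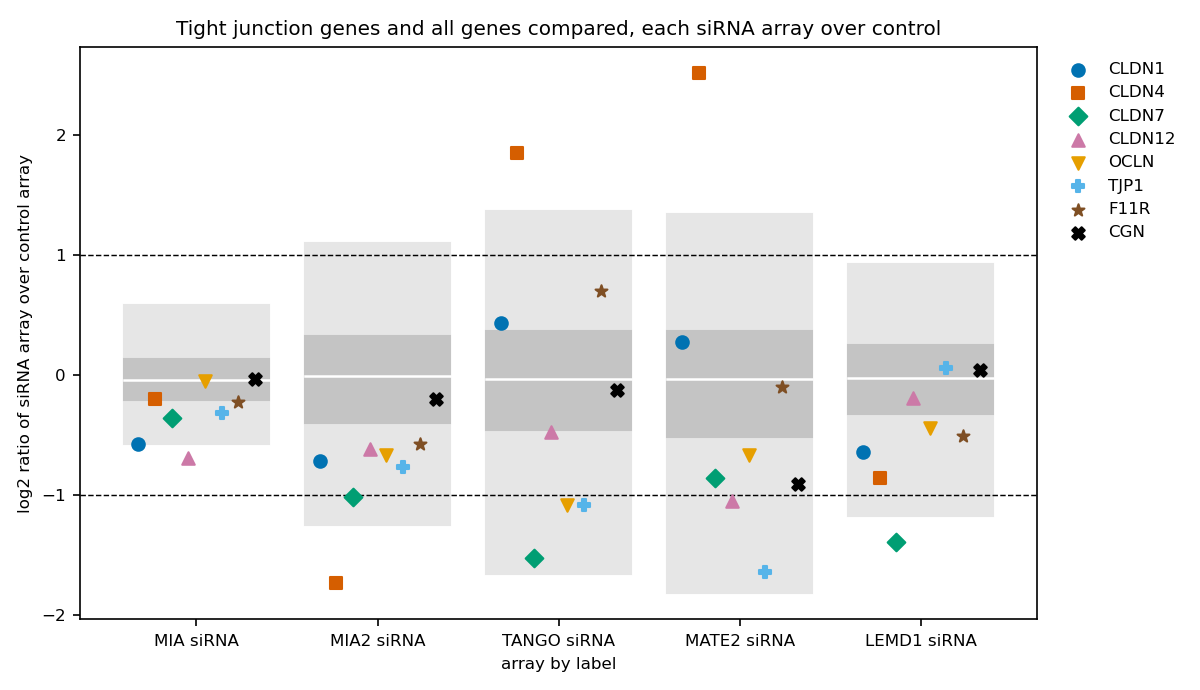
Log2 ratio of each siRNA array over the control array for the 8 genes (coloured symbols), beside the central 95% (light grey) and the interquartile range (dark grey) of all genes compared, with a white line at their median and dashed lines at 2-fold. CLDN4 lies above the central 95% on the TANGO and MATE2 siRNA arrays, at 1.85 and 2.52, and below it on the MIA2 siRNA array, at -1.73.

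Arrays were also set against each other without the control, first pairs that resembled each other in the targeted genes and then pairs that differed in them. On the LEMD1 siRNA array over the MIA2 siRNA array, no gene of the 8 reached 2-fold, beside 0.298% of 12750 genes lower and 0.604% higher. CLDN4 (log2 ratio 0.88) and TJP1 (0.82) were nearest to it, and the median of the 8 was 0.23. On MATE2 siRNA over TANGO siRNA none reached 2-fold either, beside 6.71% of 12745 genes lower and 5.88% higher, with F11R at -0.80, CGN at -0.79 and CLDN4 and CLDN7 at 0.67 each. The other pairs compared differed in LEMD1 and SLC47A2. The TANGO siRNA array over the LEMD1 siRNA array was not among them. On TANGO siRNA over MIA2 siRNA, CLDN4 (3.58), F11R (1.27) and CLDN1 (1.15) were at least 2-fold higher, beside 7.58% of 12304 genes, and none was lower, beside 8.32%. On MATE2 siRNA over LEMD1 siRNA, CLDN4 was higher (3.37) and TJP1 lower (-1.70), beside 6.48% and 10.2% of 12894 genes. The MATE2 siRNA array over the MIA2 siRNA array left CLDN4 alone past 2-fold, beside 6.38% higher and 9.18% lower.

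The 250 bases before the most upstream transcript start are shown for CLDN4 and TJP1, which had the widest ranges, and for CLDN7 and OCLN. The latter 2 were below control on all 5 siRNA arrays by every good probe and had a ratio past 2-fold. CLDN12, below control on all 5 by its brighter probe only, is not shown, and its sequence held none of the motifs searched. The choice lets the sequences before a gene that was high on 2 arrays and genes that were low be compared. They are from RefSeq on GRCh38.p14, 5′ to 3′ on the strand of the gene, with the motifs found in capitals. CLDN4 lies at chr7:73830746-73830995 on the plus strand, CLDN7 at chr17:7263214-7263463 on the minus strand, OCLN at chr5:69492297-69492546 on the plus strand and TJP1 at chr15:29969050-29969299 on the minus strand.
CLDN4: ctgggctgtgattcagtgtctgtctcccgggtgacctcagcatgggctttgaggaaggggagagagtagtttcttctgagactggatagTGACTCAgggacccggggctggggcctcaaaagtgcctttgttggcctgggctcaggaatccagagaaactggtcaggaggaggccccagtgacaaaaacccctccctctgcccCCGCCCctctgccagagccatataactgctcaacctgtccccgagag
CLDN7: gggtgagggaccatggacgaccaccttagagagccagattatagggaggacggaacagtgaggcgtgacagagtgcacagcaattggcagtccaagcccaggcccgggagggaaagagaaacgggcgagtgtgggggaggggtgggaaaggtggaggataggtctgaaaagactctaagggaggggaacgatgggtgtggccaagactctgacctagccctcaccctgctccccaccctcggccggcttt
OCLN: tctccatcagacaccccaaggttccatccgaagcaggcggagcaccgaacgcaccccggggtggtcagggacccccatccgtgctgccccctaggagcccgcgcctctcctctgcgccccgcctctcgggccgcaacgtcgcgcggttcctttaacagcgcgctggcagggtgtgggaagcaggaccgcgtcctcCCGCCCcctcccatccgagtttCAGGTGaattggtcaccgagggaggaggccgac
TJP1: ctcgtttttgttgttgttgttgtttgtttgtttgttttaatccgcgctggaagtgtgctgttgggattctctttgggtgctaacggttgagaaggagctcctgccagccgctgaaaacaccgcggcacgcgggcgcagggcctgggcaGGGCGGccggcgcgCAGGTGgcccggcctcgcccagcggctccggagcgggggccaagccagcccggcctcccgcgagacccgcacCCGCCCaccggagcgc
The motifs searched on both strands were the E-box CACCTG bound by SNAI and ZEB factors, the AP-1 motif TGACTCA, a grainyhead-like motif AACCGGTT, the TATA box TATAAA and the SP1 motif GGGCGG. The CLDN4 sequence held the AP-1 motif and 1 SP1 motif, OCLN 1 E-box and 1 SP1 motif, and TJP1 1 E-box and 2 SP1 motifs. The CLDN7 sequence held none of the 5 motifs, while the one before a second start of CLDN7 held 4 E-boxes and 1 SP1 motif. The 8 of the 9 genes with an entry had 13 listed starts in all, since some have several. Of these 13 sequences 4 held an E-box, 1 AP-1, 9 SP1 and none a TATA box or the grainyhead-like motif. Among 35116 promoter sequences of the same length, 17.5% held the E-box, 4.2% AP-1, 42.6% SP1, 10.7% the TATA box and 0.117% the grainyhead-like motif. These are matches of letters in a short sequence, and binding was not measured.

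Neighbouring genes on the chromosome were looked at as well. For each gene, the 25 compared genes on either side in RefSeq order were taken. Around OCLN on chromosome 5, 50 neighbours had a median log2 ratio of -0.60 on the MATE2 siRNA array, against -0.03 over all genes. The ratio of OCLN itself was -0.66. Of these 50, 18 were at least 2-fold lower and 0 higher, beside 11.7% and 5.93% over all genes. On the TANGO siRNA array the neighbours of OCLN had a median of -0.31, beside -1.08 for OCLN. Around CLDN7 on chromosome 17 the medians of the neighbours were -0.37 on TANGO siRNA, -0.14 on LEMD1 siRNA and -0.13 on MIA2 siRNA. The ratios of CLDN7 were -1.52, -1.39 and -1.02. On TANGO siRNA 8 of its 50 neighbours were at least 2-fold lower and 1 higher, beside 9.09% and 5.57% over all genes. Around CLDN4 on chromosome 7 the medians were 0.20 on MATE2 siRNA, 0.24 on TANGO siRNA and -0.0099 on MIA2 siRNA, beside 2.52, 1.85 and -1.73 for CLDN4. Of the 50 neighbours of CLDN4, 7 were at least 2-fold higher and 0 lower on TANGO siRNA, beside 5.57% and 9.09% over all genes. On MATE2 siRNA 5 were higher and 0 lower, beside 5.93% and 11.7%. Around CLDN12, also on chromosome 7, the medians were 0.44 on TANGO siRNA and 0.27 on MATE2 siRNA, beside -0.47 and -1.05 for CLDN12. Around TJP1 on chromosome 15, with 44 neighbours, the medians were 0.11 on MATE2 siRNA and 0.32 on TANGO siRNA, on the other side of 0 from TJP1.

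**Figure D3:**
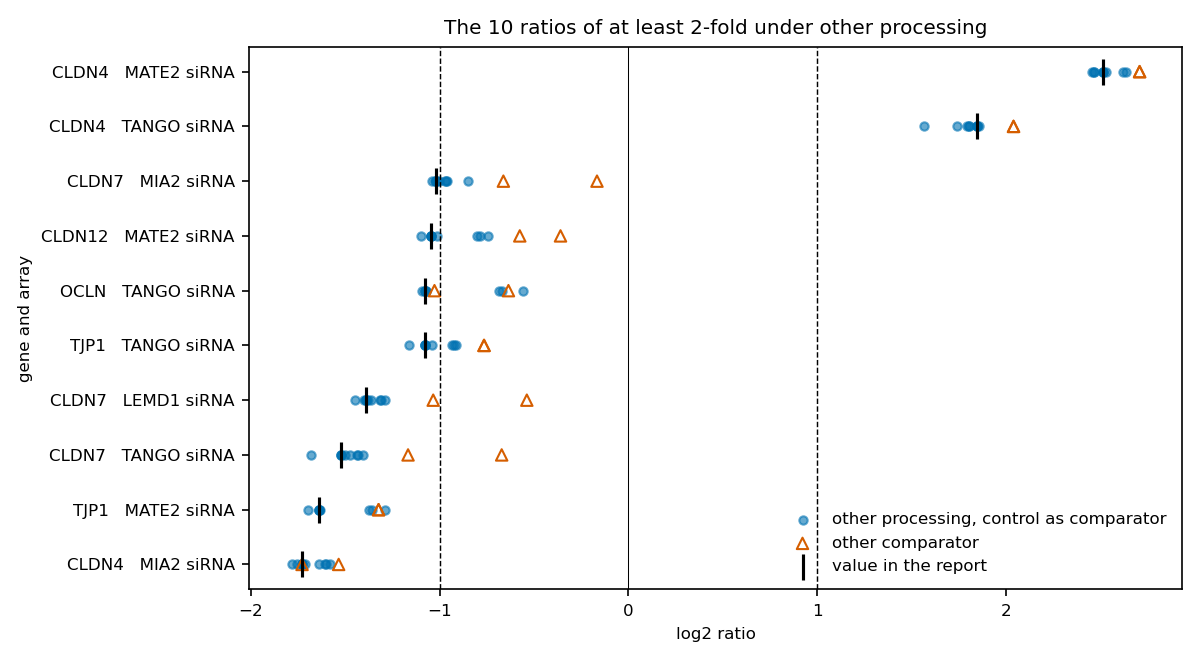
Log2 ratio to control of the 10 gene and array combinations at or past 2-fold (rows), with a black mark for the value given here, blue points for other processing with the same control and open triangles for another comparator, and dashed lines at 2-fold. The rows of CLDN4 and that of TJP1 on MATE2 siRNA stay past 2-fold throughout, whereas CLDN7 on MIA2 siRNA, CLDN12 on MATE2 siRNA, and OCLN and TJP1 on TANGO siRNA cross the dashed line under several alternatives, and CLDN7 on TANGO and LEMD1 siRNA crosses it over the median of the remaining 5 arrays, at -0.67 and -0.54.

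The genes around these 8 in the junction were followed through 6 lists with 77 further genes: other claudins, other transmembrane proteins, scaffolds, polarity and signalling proteins, adherens junction neighbours, and transcriptional regulators of junction genes. Of the 77, 8 had no named probe, 15 were good on no array, 39 were good on all 6 and 15 on some. Of the 43 compared on MIA siRNA none reached 2-fold. On MIA2 siRNA 3 of 40 were lower and 1 higher, which is 7.5% and 2.5%, beside 5.2% and 3.3% over all genes. On TANGO siRNA 5 of 42 were lower and 6 higher, 11.9% and 14.3%, beside 9.09% and 5.57%. On MATE2 siRNA 6 of 41 were lower and 3 higher, 14.6% and 7.32%, beside 11.7% and 5.93%. On LEMD1 siRNA 3 of 41 were lower and 3 higher, 7.32% each, beside 3.98% and 2.03%. The shares lower on MIA2, TANGO and MATE2 siRNA and higher on MATE2 siRNA were thus near those over all genes. On the MIA2, TANGO and MATE2 siRNA arrays the scaffolds had the lowest median of the 6 lists. On MIA2 siRNA it was -0.35, with 2 of 9 lower and 0 higher. Of 9 compared, 3 were lower and 0 higher on TANGO siRNA (median log2 ratio -0.90, against -0.03 over all genes) and 4 lower and 1 higher on MATE2 siRNA (-0.995). On LEMD1 siRNA their median was -0.0076.

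Among the scaffolds, the multi-PDZ scaffold genes MPDZ and PATJ were lower on MATE2 siRNA, at -1.81 and -1.07, with PATJ at -1.03 on TANGO siRNA and -0.46 by its dimmer probe on MATE2 siRNA. The signal of MPDZ on MATE2 siRNA, 41.9, was close to the lowest good signal of that array, 31.4. AMOTL2, an angiomotin-family gene whose protein binds junction scaffolds and YAP, read 847.4 on MIA siRNA, 274.7 on MIA2 siRNA, 151.5 on TANGO siRNA, 471.8 on MATE2 siRNA and 336.3 on LEMD1 siRNA, against 940.4 in control. Its log2 ratio was -2.63 on TANGO siRNA, -1.78 on MIA2 siRNA and -1.48 on LEMD1 siRNA. Its relative AMOTL1 was lower on TANGO siRNA (-1.14) and MATE2 siRNA (-1.31), while AMOT was higher on MATE2 siRNA (1.17). PALS1 was lower on MIA2 siRNA by its brightest probe (-1.27) but not by its others (-0.64 and 0.18).

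Of 19 other claudins, 4 could be compared with control on every siRNA array. CLDN17 was higher on 3 arrays, with signals of 189.2 on MIA2 siRNA, 200.7 on TANGO siRNA and 258.0 on MATE2 siRNA, against 81.2 in control (log2 ratios 1.22, 1.31 and 1.67). It read 123.1 and 137.9 on the MIA and LEMD1 siRNA arrays, both also above control. CLDN8 falls outside the rule for named genes, because it was near background in control, and was chosen after its values were seen. It was near background on the 5 arrays other than MATE2 siRNA, where its probes read 631.6 and 265.4, at least 18.4-fold and 7.75-fold above control. CLDN11, chosen in the same way and best known from myelin and testis, was near background in control and at least 3.11-fold and 2.69-fold higher on TANGO siRNA by its 2 probes. LSR, the gene of angulin-1, which recruits tricellulin to the points where 3 cells meet, was lower on LEMD1 siRNA (-1.27) and near background on MIA2 siRNA, at least 3.79-fold below control.

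**Figure D4:**
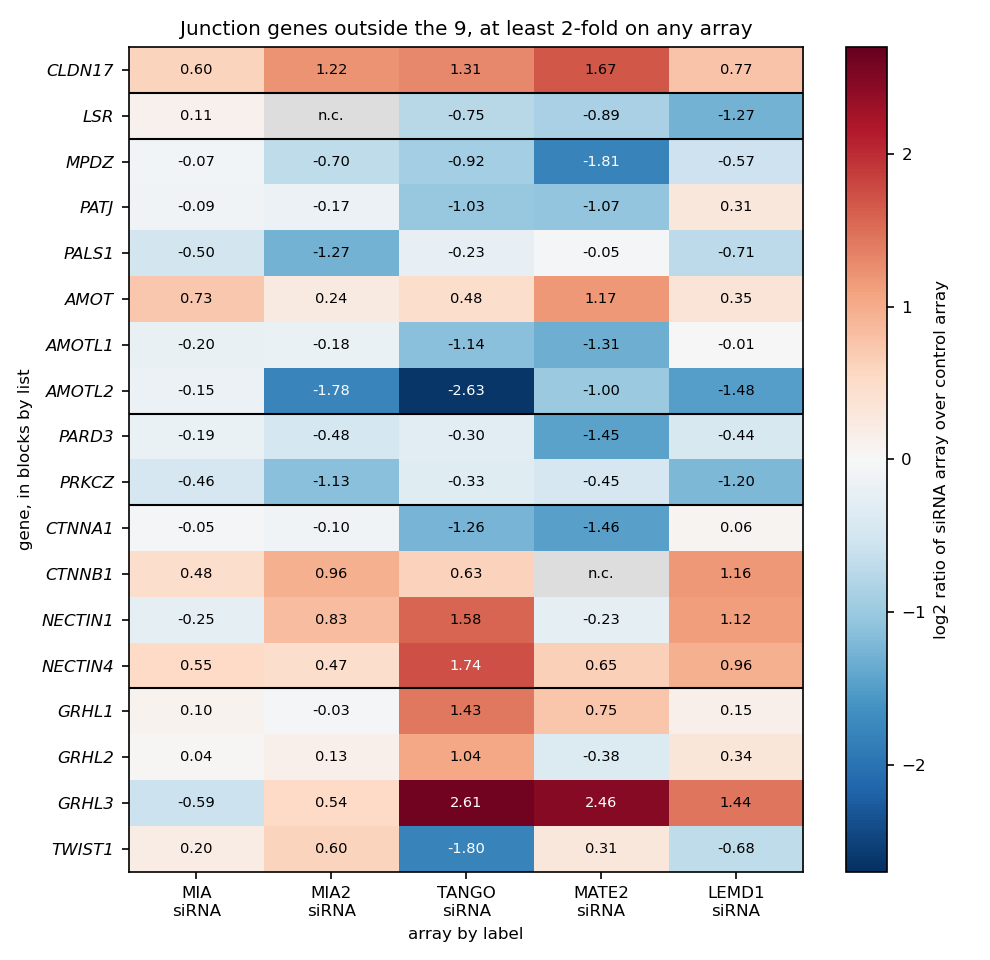
Log2 ratio of each siRNA array over the control array for 18 genes of the wider lists that reached 2-fold on any array, in blocks by list from other claudins at the top to transcriptional regulators at the bottom, with n.c. for a gene not good on both arrays. GRHL3 is at 2.61 and 2.46 on the TANGO and MATE2 siRNA arrays, and AMOTL2 is at -2.63 on TANGO siRNA.

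The polarity genes PARD3, lower on MATE2 siRNA by both probes (-1.45 and -1.53), and PRKCZ, lower on MIA2 and LEMD1 siRNA (-1.13 and -1.20), were the only ones of 7 compared in their list to reach 2-fold. The second probe of PARD3 disagreed with the first on TANGO siRNA (-0.30 by the brighter probe and above control by the other) and that of PRKCZ on LEMD1 siRNA (0.12). In the adherens junction, CTNNA1, which encodes the alpha-catenin that joins cadherin to actin, was lower on TANGO siRNA (-1.26) and MATE2 siRNA (-1.46). CTNNB1 was higher on LEMD1 siRNA (1.16), NECTIN1 on TANGO and LEMD1 siRNA (1.58 and 1.12) and NECTIN4 on TANGO siRNA (1.74), but the second probe of NECTIN1 was at -0.06 on TANGO siRNA and 0.95 on LEMD1 siRNA. EPCAM, whose protein binds claudin-7, had signals of 3882, 3143, 2824, 2684 and 3306 on the MIA, MIA2, TANGO, MATE2 and LEMD1 siRNA arrays, against 3597 in control, so that the MIA siRNA array alone lay above control. CDH1 had no named probe and was not analysed here.

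Of the transcriptional regulators, GRHL3, a grainyhead-like factor of the epidermal barrier, had the widest difference. It read 99.5 on MIA siRNA, 216.8 on MIA2 siRNA, 912.4 on TANGO siRNA, 820.0 on MATE2 siRNA and 404.9 on LEMD1 siRNA, against 149.5 in control, with log2 ratios of 2.61, 2.46 and 1.44 on the last 3 siRNA arrays. The arrays with the highest GRHL3 were the 2 with the highest CLDN4. On the LEMD1 and MIA2 siRNA arrays GRHL3 was above control (log2 ratios 1.44 and 0.54) and CLDN4 below it. On the MIA siRNA array both genes were below control. A link between GRHL3 and CLDN4 was not tested. GRHL1 (1.43) and GRHL2 (1.04) reached 2-fold on TANGO siRNA only. TWIST1, a factor known for repressing epithelial genes, read 45.8 on TANGO siRNA, against 159.7 in control (-1.80). That signal was close to the lowest good signal of the TANGO siRNA array, 31.4. ZEB1 and ZEB2 were good on no array.

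For the 2 genes with the widest range, the named genes with the most similar signal over the 6 arrays were listed among 4924 genes that were good on all 6 arrays and ranged over at least 2-fold. For CLDN4 these were AMPD2 (Pearson r = 0.995), TRMT6 (0.990) and INTS4 (0.988). AMPD2 read 148.7, 85.9, 242.7, 328.7 and 107.6 on the MIA, MIA2, TANGO, MATE2 and LEMD1 siRNA arrays, against 150.2 in control. For TJP1 they were RAPGEF6 (0.996), POC5 (0.994) and MOSPD1 (0.991), and RAPGEF6 read 255.2, 179.1, 159.0, 106.9 and 326.7 on the same arrays, against 338.4 in control. These likenesses describe 6 points, picked as the closest of many genes.

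Signals of OCLN, TJP1 and CLDN7 could include their pseudogene copies OCLNP1, TJP1P1 and CLDN7P1, which RefSeq lists. Probe sequences were not used here, and cross-hybridization was not tested.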

How the data were processed

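Total RNA of 6 HSC3 cultures was hybridised by the authors to CodeLink Human Whole Genome arrays labelled with Cy5 and read with CodeLink Expression Analysis 5.0.0.31312. The deposited files hold linear intensity per spot: the background-corrected intensity equalled spot mean minus local background median within 0.0001. A deposited table of the same arrays, quantile normalized by the authors, is linear and not centred. It served as an alternative, and 93.1% to 96.5% of its gene-probe values per array lay within 1% plus 1 of the values used here. No build is given in the sources used here, and a single colour leaves no direction to settle.

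Of 53423 gene probes, 320 masked on any array were left out. The remaining 53103 were quantile normalized over the 6 arrays, floored at 1 and log2 transformed (Python 3.11.15, numpy 2.4.6, pandas 2.3.3). A gene was compared where its probe had a good flag on both arrays, by the probe with the highest mean log2 signal. The platform table named 23311 probes, updated to current RefSeq symbols, and accessions named 649. A further 898 had several genes and 28245 no name here. All ratios are over 1 array per condition, and a gene is called from a log2 ratio of 1 upwards or -1 downwards. A gene near background in 1 of the arrays is given as a bound, the brighter signal over the lowest good signal of the other array or the gene's own, whichever is higher. The 2-fold call, not the bound, was tried on simulated data, with changes well above 2-fold placed in brighter probes only. The simulation therefore does not bear on ratios near 2-fold or on dim genes such as OCLN and CGN.

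The 9 genes, the lists, the motifs and the rule for naming (all 9 genes, and each gene of the wider lists at least 2-fold from control on any siRNA array, except 1 that is counted in its list and not reported here) were chosen with earlier results of these data known. The neighbouring genes, normalization without the TANGO and MATE2 siRNA arrays, and the array labelled MIA siRNA as comparator were added after seeing the data. The other alternatives were median scaling, normexp correction (limma 3.58.1, offset 50), uncorrected spot means, the deposited table, 50 added to the signal, normalization of each siRNA array with control alone, no filter on flags, good flags on all 6 arrays, the mean over a gene's good probes, and the median of the remaining 5 arrays in place of control. Each array's precision is limited by there being 1 per condition.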

Additional observations from a re-analysis of the deposited data

How the results depend on the processing

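No paired analysis was possible because each condition had 1 array, and for the same reason no replicate could be left out. Of 114 alternative values of the counts and medians of the 8 genes, 102 did not move and 12 did, a count moving past 1.5 times and a median past the spread of all genes' log2 ratios in that comparison (0.25 to 0.65). By that spread 437 of 456 values of single genes did not move, but the 2-fold call was lost in 22 of 113 values of the 10 called ratios, touching 6 of them, and gained in 2 values, of CLDN1 on TANGO siRNA. None of the called ratios changed sign. Some alternatives could not move these values and add to the number that did not. The brightest probe of each of the 8 genes was good on all 6 arrays. The 2 alternatives on flags therefore returned the values given. Among single genes, the mean over a gene's good probes could move only CLDN12 and F11R. The count on MIA2 siRNA was 1 in place of 2 under median scaling, normexp, no background correction, 50 added to the signal, the median of the 5 other arrays and the MIA siRNA array as comparator. The count on MATE2 siRNA was 2 in place of 3 under the same settings except median scaling. The count on TANGO siRNA was 2 in place of 4 under normexp, no background correction, 50 added and the median of the 5 other arrays. With the median of the 5 other arrays the count on LEMD1 siRNA was 0 in place of 1, and the median on MATE2 siRNA was -0.047 in place of -0.76. The median on TANGO siRNA, -0.29, was 0.03 with that comparator and 0.07 with the MIA siRNA array. With the median of the 5 other arrays the medians on MIA, MIA2 and LEMD1 siRNA were -0.02, -0.34 and -0.12, in place of -0.27, -0.69 and -0.47.

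Over all genes, median scaling changed the split on MIA2 siRNA to 541 lower and 578 higher, in place of 649 and 412, and on TANGO siRNA to 1365 and 523, in place of 1141 and 699, with the median of all genes at -0.125. No background correction gave the lowest counts with control as comparator: 4 lower and 12 higher on MIA siRNA (34 and 50 as given), 327 and 188 on MIA2, 624 and 383 on TANGO, 865 and 389 on MATE2 (1469 and 747), and 257 and 135 on LEMD1 (515 and 263). Without a filter on flags the counts were 1038 and 1129, 1904 and 1646, 2503 and 2057, 2873 and 2095, and 1553 and 1325 on the same arrays. Dim genes such as OCLN, CGN and CLDN12 are limited by signal over background: the median local background was 64.0 to 67.0.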
